A study of Mus musculus with 4 samples.

Results

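Hspa1b, Dnajb1, Socs3, Ier3, Zfp36, Per1 and Ccn2 are genes that cells switch on within minutes to hours of heat, cytokines, growth factors or mechanical load, and several of their products then damp the signal that induced them. They were followed in a peak list of CHD4, a chromatin remodeller that drives the NuRD complex. The genes had been selected on the authors' peak call, since each had to be named for a called interval. Every entry whose gene name was one of the 7 symbols was taken, and entries with the same chromosome, start and end were joined into 1 interval, which gave 9 of the 1849 intervals of the list. All 7 genes were named for an interval, as the choice required, against 6.1% of protein-coding genes in the RefSeq table. Binding had been mapped by CUT&Tag, in which an antibody directs a transposase to chromatin so that DNA beside the bound protein is cut and tagged. The compared samples were 2 with an antibody against CHD4 and 2 with a control antibody called IgG, all from wild-type C57BL/6 mice and all labelled spermatogonial. The control is labelled as a rabbit antibody to mouse IgG coupled to HRP. The protocol starts from testes digested to single cells. No source used here gives the age of the mice or the way spermatogonial cells were separated, and a peak list holds no expression values against which the label could be checked.

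Inducible genes of this kind share a layout in which promoters are kept accessible before the stimulus. Heat shock factor drives the chaperone genes, STAT factors drive Socs3, CLOCK and BMAL1 drive Per1, and the YAP and TAZ coactivators with TEAD factors drive Ccn2. CHD4 and its complex are known from other cells as regulators of nucleosome positions and histone acetylation at promoters and enhancers.

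The list is 1 call of CHD4 over IgG across all samples, so no interval has a value per sample and no spread between replicates can be given. Its fold is the authors' ratio of CHD4 to IgG signal at a summit, the highest point of a peak, and an interval took the values of its summit of highest fold. Numbers of CHD4 fragments and the number expected from IgG were recovered from fold and −log10 p at all 2066 summits. The recovered CHD4 library was 2.33 times as deep as the IgG library, and fold is the scaled CHD4 number plus 1 over the IgG expectation plus 1. The counting interval given after a fold comes from the exact 95% Poisson interval of the CHD4 fragments with the IgG expectation held fixed, so it covers counting error of CHD4 only. The presence of an interval chose the genes, so folds, widths and depths are described without a test.

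Of the 9 intervals, 5 lay within 1 kb of the transcript start of the authors' annotation and are called promoter intervals, against 34.1% of all intervals. They belonged to Hspa1b, Dnajb1, Zfp36, Per1 and Ccn2. The other 4, called distal, were the pair named for Ier3, the interval of Socs3 and the second interval of Ccn2. In Dnajb1 and Ccn2 the promoter interval contained the annotated start itself, as did 15.7% of all intervals. Every interval but that of Socs3 lay upstream of its start or over it. The same share was not counted over the whole list, so nothing particular to these genes is read from it. With 5 promoter and 4 distal intervals, each share moves greatly with a single interval.

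**Figure D1:**
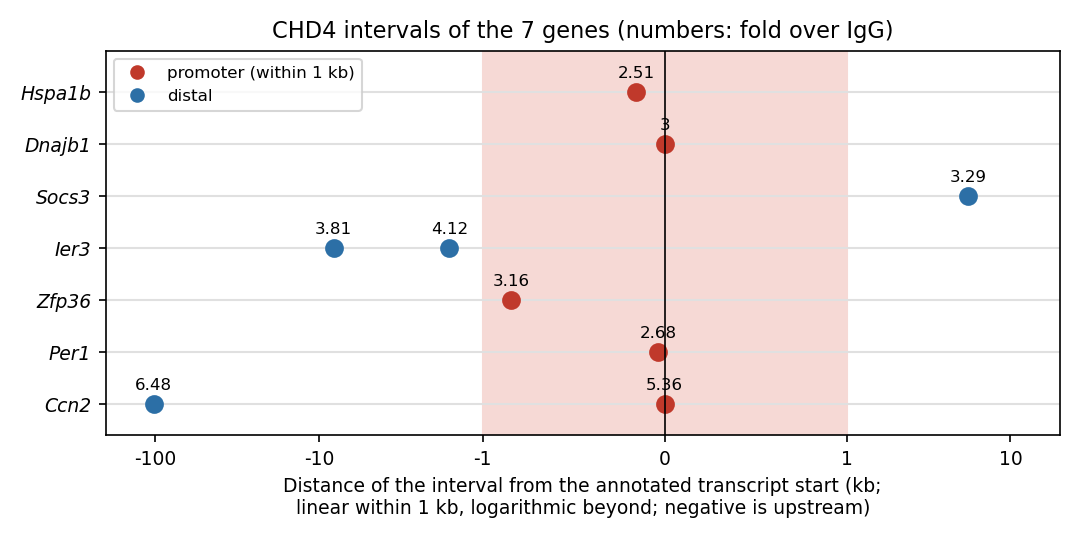
Position of the 9 CHD4 intervals of the 7 genes relative to the annotated transcript start, in kb on an axis that is linear within 1 kb (shaded) and logarithmic beyond it, with upstream to the left. Each point is an interval with its fold over IgG above it: the 5 promoter intervals lie between 842 bp upstream and the start, and the 4 distal ones from 102 kb upstream to 5.53 kb downstream.

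Both heat shock genes were marked at the promoter, at low fold and over a high IgG background. Hspa1b encodes an inducible HSP70, which binds unfolded proteins and refolds them at the cost of ATP. Its interval was 198 bp wide (chr17:34959396-34959593, mm10) and began 158 bp upstream of the start, on the minus strand. At the summit 68 CHD4 fragments were recovered (95% interval 52.8 to 86.2) against 11 expected from IgG, a fold of 2.51 (counting interval 1.97 to 3.16). By fold it ranked 1825 of the 1849 intervals, while its IgG expectation exceeded that of 96.6% of them. Its q of 0.011 lay just above 0.01, the level that 77.3% of intervals met. The summit lay near the outer edge of the interval, 343 bp upstream of the start.

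Hspa1b has a near-identical neighbour, Hspa1a, which encodes the same kind of chaperone and begins on the same strand. The interval ended 9.77 kb before the Hspa1a gene of the RefSeq table. No interval was named for Hspa1a or overlapped its gene or promoter window. The 250 bases before each start, from RefSeq with build GRCm38.p6 on the minus strand (chr17:34959239-34959488 for Hspa1b and chr17:34972157-34972406 for Hspa1a), are shown because reads from this stretch can fit both copies. In the Hspa1b line, capitals mark the 93 bases that fall in the CHD4 interval. In the Hspa1a line, capitals mark the bases that differ from Hspa1b.
Hspa1b: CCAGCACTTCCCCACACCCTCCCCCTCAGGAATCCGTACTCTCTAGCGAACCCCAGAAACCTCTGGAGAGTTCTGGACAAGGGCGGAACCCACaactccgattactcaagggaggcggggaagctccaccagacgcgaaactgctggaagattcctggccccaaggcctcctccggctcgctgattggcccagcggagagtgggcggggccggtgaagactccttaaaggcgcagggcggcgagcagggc
Hspa1a: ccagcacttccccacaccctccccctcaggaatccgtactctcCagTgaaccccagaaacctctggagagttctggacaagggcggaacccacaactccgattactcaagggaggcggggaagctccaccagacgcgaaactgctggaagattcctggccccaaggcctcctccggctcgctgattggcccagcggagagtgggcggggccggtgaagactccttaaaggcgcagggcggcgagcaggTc
The stretches were identical at 247 of 250 positions (98.8%). Counted from 1 at the 5′ end of the stretch, with the Hspa1b base given first, the differences were T44C, C47T and G249T, of which T44C and C47T fall in the interval. The treatment of reads that map to both copies is stated in no source used here, so the fold at Hspa1b and the lack of a call at Hspa1a are uncertain to that extent. The fold was read at the summit, 343 bp upstream of the start and outside the 250 bases shown. How far the copies match at the summit was not examined. The heat shock element pair searched as GAANNTTC occurred at both genes as GAAGATTC, 104 to 97 bases before the start, between the interval and the gene. Only exact matches to the pattern were searched. Heat shock elements with mismatches were not looked for, so whether the interval holds one was not examined. GGGCGG, the GC box bound by SP1, lay inside the interval 170 to 165 bases before the start. It also lay outside the interval, 49 to 44 and 16 to 11 bases before the start. Hspa1a holds GGGCGG at the same positions, and 35.7% of windows hold it. Of all 32851 promoter windows in the table, which run from 250 bases before to 50 after a start, 7.86% hold GAANNTTC.

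Dnajb1 encodes an HSP40, a J-domain protein that hands clients to HSP70 and stimulates its ATPase. Its interval (chr8:83608065-83608274, 210 bp) contained the transcript start, and the summit lay 56 bp from its upstream edge. It held 59 CHD4 fragments (44.9 to 76.1) over an IgG expectation of 7.75, with a fold of 3 (counting interval 2.31 to 3.84) and a q of 0.00198. The 250 bases before its RefSeq start (chr8:83607925-83608174, GRCm38.p6, plus strand) are shown because the interval covers the part nearest to the gene, in capitals.
Dnajb1: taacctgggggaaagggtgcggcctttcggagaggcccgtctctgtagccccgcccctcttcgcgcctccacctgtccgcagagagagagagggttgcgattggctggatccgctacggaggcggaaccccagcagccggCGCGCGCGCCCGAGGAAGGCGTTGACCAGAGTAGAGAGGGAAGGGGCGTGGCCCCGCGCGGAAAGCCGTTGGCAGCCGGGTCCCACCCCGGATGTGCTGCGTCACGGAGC
The interval covered the window from 110 bases before the start onwards. Neither GAANNTTC nor its companion TTCNNGAA, held by 8.52% of windows, was found in that window. Here too only exact matches were searched, so heat shock elements with mismatches could have been missed. In the same window CCAAT, searched on both strands, lay outside the interval 151 to 147 bases before the start and inside it 11 to 15 bases after the start; 37.4% of windows hold CCAAT. The folds of Hspa1b and Dnajb1 had overlapping counting intervals, so their order cannot be told from these counts.

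Among genes of feedback on cytokine and mRNA levels, the intervals of Socs3 and Ier3 were distal and that of Zfp36 was a promoter interval. Socs3 encodes an inhibitor of JAK-STAT signalling that cytokines induce against themselves. Its interval (chr11:117963367-117963660, 294 bp) was the only interval of the 9 beyond the 3′ end of its gene, 2.42 kb past the RefSeq boundary and 5.53 kb from the annotated start. It held 36 CHD4 fragments (25.2 to 49.8) over an IgG expectation of 4, with a fold of 3.29 (2.36 to 4.47). Its q was 0.0242, at rank 1643 of 1849 from the strongest. No other interval lay within 100 kb, and the nearest was 182 kb away. The RefSeq promoter window of Socs3, which no interval touched, holds the STAT motif searched as TTCNNNGAA, as do 8.3% of windows.

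Zfp36 encodes tristetraprolin, which binds AU-rich elements of inflammatory mRNAs and hastens their decay. Its interval (chr7:28381095-28381427, 333 bp) had 64 CHD4 fragments (49.3 to 81.7) over an IgG expectation of 8, a fold of 3.16 (2.46 to 4) and a q of 0.000463. It lay 842 bp upstream of the start of the authors' annotation. That transcript begins farther out than the gene of the RefSeq table, from whose 5′ end the interval was 1.87 kb away. Its class as a promoter interval therefore depends on the annotation. Within 100 kb lay 2 other intervals, that of Plekhg2 at 7.77 kb with a fold of 3.33 and that of Paf1, a subunit of an elongation complex, at 11.3 kb with a fold of 5.93.

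Ier3, an immediate early gene induced by growth factors and NF-κB, had 2 intervals upstream, 6.24 kb apart. The nearer interval (chr17:35819809-35820085, 277 bp) lay 1.6 kb from the start, beyond the 1 kb limit used here, though the authors' annotation puts it in a promoter class of 1 to 2 kb. It held 19 CHD4 fragments (11.4 to 29.7) over an IgG expectation of 1.22, with a fold of 4.12 (2.66 to 6.19) and a q of 0.0264. The farther interval (chr17:35812942-35813569) lay 8.12 kb from the start and was the widest of the 9 at 628 bp. It was also the only interval of the 9 with 2 summits; 9.84% of all intervals had more than 1. Its first summit held 59 CHD4 fragments over an IgG expectation of 5.91, with a fold of 3.81 (2.93 to 4.87) and the smallest q of the 9, 2.75e-05. Its second summit held more CHD4 fragments, 84, over a higher IgG expectation of 12, with a fold of 2.85. The nearer interval thus had the higher fold and the farther interval the stronger call, and the counting intervals of their folds overlapped. The Ier3 locus was the second most crowded of the 7. Within 100 kb of the farther interval there were 5 others, among them 3 named for the non-coding transcript 4833427F10Rik with folds of 5.21, 5.86 and 7.64, and 1 at the promoter of Mdc1, a DNA damage adaptor, with a fold of 2.98.

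Per1, a repressor of the circadian clock that acute stimuli also induce, had the deepest summit of the 9. Its interval (chr11:69094893-69095182, 290 bp) lay 35 bp upstream of the start of the authors' annotation and contained the 5′ end of the RefSeq gene. The summit held 104 CHD4 fragments (85 to 126), more than 98.2% of all intervals. The IgG expectation was 16 fragments, 46.3 times the lowest value of the list, at rank 22 of 1849 from the highest. The fold was 2.68 (2.2 to 3.24), at rank 1803, and the q was 5.64e-05. Both Per1 promoter windows of the RefSeq table belong to starts inside the gene, and the windows begin 3.52 and 4.72 kb beyond the interval. The first holds CACGTG, the E-box bound by CLOCK and BMAL1, as do 7.15% of windows. The Per1 locus was the most crowded of the 7, with 7 other intervals within 100 kb. Those nearest were the pair named for the small nucleolar RNA gene Snord118 at 15.8 and 21 kb, with folds of 5.6 and 5.77.

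Ccn2, which encodes a secreted matrix protein that YAP and TAZ induce, had both of the highest folds among the 9 intervals. Its promoter interval (chr10:24595376-24595713, 338 bp) contained the start and held 24 CHD4 fragments (15.4 to 35.7) over an IgG expectation of 1.11. The fold was 5.36 (3.6 to 7.74), above 68.4% of all intervals, with a q of 0.000454. The distal interval (chr10:24493382-24493708, 327 bp) lay 102 kb upstream and had the highest fold of the 9, 6.48 (4.14 to 9.81), with a q of 8.83e-05. It held 18 CHD4 fragments (10.7 to 28.4), the fewest of the 9, and its IgG expectation was 0.346, a minimum that 131 of the 2066 summits share. That value is taken as the floor of the caller, so the highest fold among the 7 genes would rest on a denominator that no local IgG fragments set. The counting intervals of both Ccn2 folds overlapped. Both intervals fell inside Gm15270, a long non-coding RNA gene of the RefSeq table that spans 264116 bp and ends 361 bp beyond the Ccn2 start. No other interval lay within 100 kb of either. The promoter intervals most like that of Ccn2 in fold, width and distance, each scaled by its SD over the 631 promoter intervals, were those of Selenoh, a nuclear selenoprotein, Inppl1, an inositol phosphatase, and Acadsb, an acyl-CoA dehydrogenase. Their distances on that scale were 0.132, 0.165 and 0.244, and their folds were 5.18, 5.13 and 5.01.

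The RefSeq promoter table holds 8 windows for 6 of the 7 genes, without Ccn2, and all motifs were searched on both strands. Dnajb1 and Per1 have 2 windows each. GGGCGG occurred in 8 of the 8 windows, CCAAT in 5 and TTCNNNGAA in 3, those of Socs3, Zfp36 and a Per1 start inside the gene. Of all windows, 35.7% hold GGGCGG, 37.4% CCAAT and 8.3% TTCNNNGAA. The CArG box bound by serum response factor occurred at Zfp36 alone, 58 to 49 bases before the start, where it shares 1 base with a GGGCGG match, and 1.63% of all windows hold it. The cyclic AMP element TGACGTCA, the TATA box TATAAA and the TEAD motif CATTCC were found in 0 of the 8 windows and in 1.79%, 13.6% and 14.7% of all windows. CHD4 intervals overlapped 2 of the 8 windows, those of Hspa1b and Dnajb1 shown above.

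By median, promoter intervals of the 7 genes had more CHD4 fragments than distal intervals but a lower fold. Fold had a median of 3 at the 5 promoter intervals and of 3.96 at the 4 distal ones, a difference of −0.961. The difference was −2.22 as a fragment ratio without the added 1, −2.06 over intervals with a q of 0.01 or less, and −1.88 without Ier3. At that q the only distal intervals left were that of Ccn2 and the farther of Ier3. Without Ier3 they were those of Ccn2 and Socs3. Both values thus lean on the distal fold of Ccn2, 6.48, which has the lowest IgG expectation of the list. In the whole list the medians were 4.32 at promoter and 4.98 at distal intervals, a difference of −0.657 in the same direction. CHD4 fragments had medians of 64 in promoter and 27.5 in distal intervals of the 7 genes, and of 34 in promoter and 25 in distal intervals of the whole list. Fragment numbers of the 7 genes overlapped between the classes. The Ccn2 promoter interval held 24, fewer than the distal intervals of Socs3 with 36 and the farther Ier3 interval with 59. The IgG expectation had medians of 8 in promoter and 2.61 in distal intervals of the 7 genes, and of 2.4 in promoter and 1 in distal intervals of the whole list. Only called intervals enter the fold medians, and low folds were listed only where the IgG expectation was high. The part of this in the fold difference between promoter and distal intervals was not tested. The ranges of fold overlapped, since Ccn2 with 5.36 exceeded 3 of the 4 distal intervals and Socs3 with 3.29 lay close to Zfp36 with 3.16. By −log10 q the order turned round, with medians of 3.33 in promoter and 2.83 in distal intervals of the 7 genes. In the whole list they were 2.89 in promoter and 2.92 in distal intervals, a difference of −0.0324. Widths had similar medians, 290 bp in promoter and 310 bp in distal intervals.

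**Figure D2:**
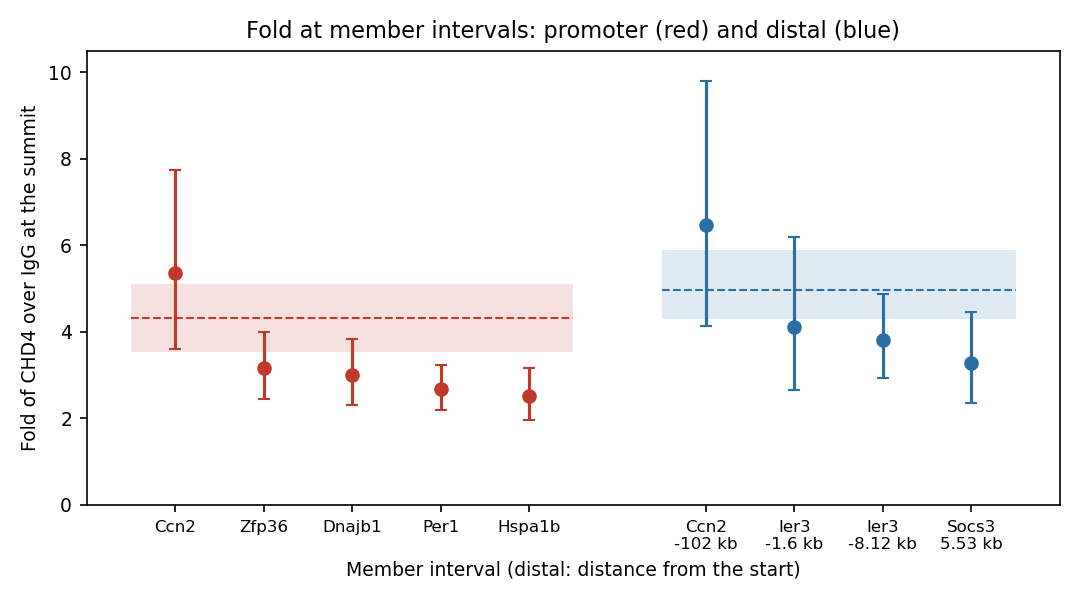
Fold of CHD4 over IgG (linear axis from 0) at the 5 promoter intervals in red and the 4 distal intervals in blue, with bars for the 95% counting interval of the CHD4 fragments. Dashed lines and shaded bands give the median and quartiles over all 631 promoter and all 1218 distal intervals: outside Ccn2 every point lies below the median of its class.

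Across the 7 genes, 7 of the 9 intervals had a fold below the median of the list, 4.76, and both exceptions were those of Ccn2. Of the promoter intervals, 4 of 5 were among the lowest 10% of all folds, a range that held 19.2% of all 631 promoter intervals. The IgG expectation was above the list's median of 1.31 in 6 of the 9, and CHD4 fragments were above the median of 27 in the same 6: Per1, Hspa1b, Zfp36, Dnajb1, Socs3 and the farther interval of Ier3. Fold has the IgG expectation in its denominator, so at a given CHD4 count it is lower where the expectation is higher. The part of this in the low folds was not tested. In 4 of the 9 the IgG expectation was a whole number to within 0.0001, at 16, 11, 8 and 4 for Per1, Hspa1b, Zfp36 and Socs3, as in 38.6% of all intervals. Whether accessible DNA that the transposase cuts without CHD4 has a part in these counts was not tested.

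**Figure D3:**
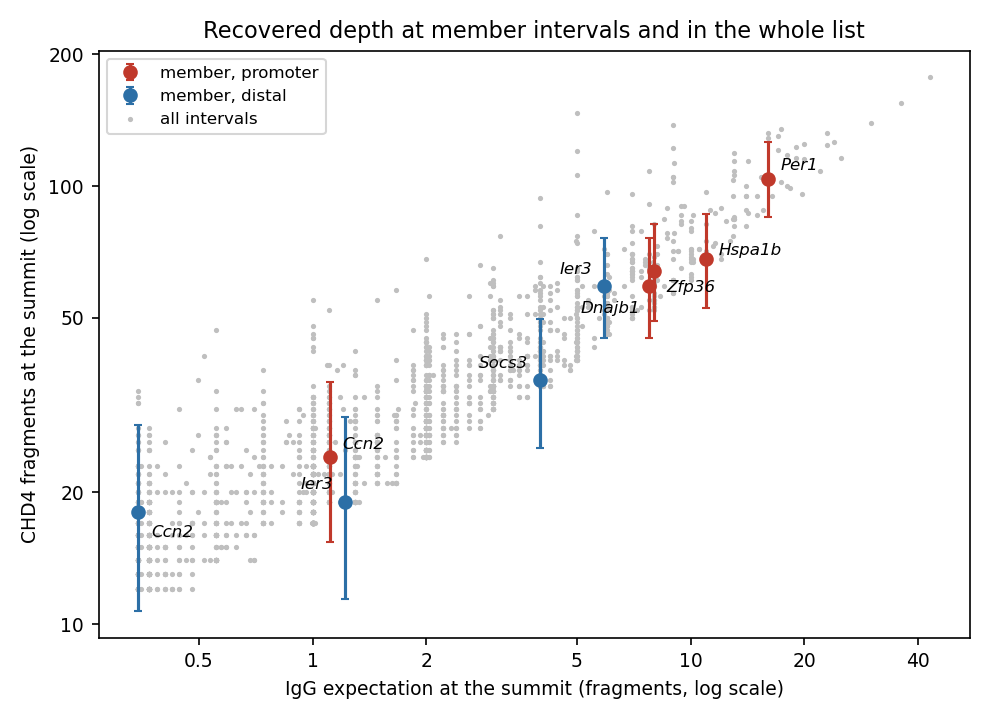
CHD4 fragments at the summit against the IgG expectation, both on logarithmic axes, for all 1849 intervals in grey and for the 9 intervals of the 7 genes in red (promoter) and blue (distal), with exact 95% Poisson bars. Per1, Hspa1b, Zfp36 and Dnajb1 lie at the upper right, between 59 and 104 CHD4 fragments, and both Ccn2 intervals and the nearer Ier3 interval lie at the lower left, between 18 and 24.

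Related genes were counted on 7 lists, of heat shock proteins, co-chaperones, the SOCS and JAK-STAT pathway, the Zfp36 family, other inducible feedback genes, the circadian clock, and the CCN, YAP and TAZ genes. Without the 7 genes themselves the lists hold 191 genes, of which 37 (19.4%, exact 95% interval 14 to 25.7) were named for an interval, against the 6.1% of all protein-coding genes. The lists were chosen with earlier results of these data known, so all shares of these lists are descriptions and not tests. Naming goes by the nearest transcript start, so a gene far from its neighbours collects more intervals, and the part of this in the counts was not tested.

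Of the other 32 heat shock genes, 4 were named (12.5%, 3.51 to 29), all with a promoter interval, which 2.57% of protein-coding genes had. Hspa8, the constitutive HSP70, had an interval over its start with 126 CHD4 fragments over an IgG expectation of 24 and a fold of 2.2, so it too combined many fragments with a high IgG expectation. Hsph1, a nucleotide exchange factor for HSP70, had a fold of 3.61 from 65 fragments over 7. Hspa9, the mitochondrial HSP70, had a promoter fold of 3.51 and a distal fold of 4.85, and Cryab, a small heat shock protein, had 4.05. Of the other 37 co-chaperone genes, 5 were named (13.5%, 4.54 to 28.8). Promoter intervals were those of Bag6, which guards misfolded proteins, with a fold of 5.15, the J-domain genes Dnaja4 with 4.43 and Dnajb12 with 3.94, and St13, which binds HSP70, with 3.54. Dnajb4, another J-domain gene, had a distal interval of fold 4.98, and Dnajb12 a second 1 of fold 5.56 at 29.3 kb. Not all of these had the depth of Hspa8: Cryab had 26 fragments over an IgG expectation of 2 and Dnaja4 had 12 over 0.388. At promoter intervals the IgG expectation had a median of 8.21 in the other heat shock genes and 2.03 in the other co-chaperone genes. It was 2.4 over all promoter intervals.

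Of the other 49 inducible feedback genes, 17 were named (34.7%, 21.7 to 49.6), and of their 27 intervals 4 were at promoters and 23 were distal. Several of these share a gene, so promoter shares were counted by gene. Of the named genes, 8 of 9 in the heat shock and co-chaperone lists together had a promoter interval (88.9%, 51.8 to 99.7). Among inducible feedback genes 4 of 17 had one (23.5%, 6.81 to 49.9), and in the whole list 40.6% of the 1517 named genes. Among the inducible feedback genes were 5 phosphatase genes that end MAP kinase signalling, with Dusp1 at a fold of 4.36, Dusp4 at 8.96, Dusp5 at 4.14 and 3.57, Dusp6 at 3.1 over its start and 6.29 at 31.5 kb, and Dusp10 at 5.64, 5 and 4.11. The antiproliferative genes Btg1 and Btg2 had distal folds of 5.86 and 7.19. Gadd45b, a stress sensor, had 2 distal intervals with folds of 4.26 and 3.55, and Gadd45g had 1 of 5.21. Trib1, a pseudokinase, had 4, with folds from 3.29 to 6.05, and the transcription factor gene Klf6 had 3, with folds of 4.77, 6.29 and 4.14. The promoter intervals were those of Mafk, a small Maf factor, with 5.46, Id2, an inhibitor of helix-loop-helix factors, with 5.33, Plk2, a polo-like kinase, with 3.57, and Dusp6. The kinase genes Pim1 and Sgk1 had distal folds of 4.7 and 3.72, and Tnfaip3, an inhibitor of NF-κB, had 4.33.

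In the Zfp36 family, whose members all promote mRNA decay, Zfp36l1 had a fold of 6.05 at 1.42 kb, and Zfp36l2 had 2.83 at the promoter and 5.26 at 7.95 kb, so 2 of the other 3 were named. Of the other 25 genes of the SOCS and JAK-STAT list, 2 were named (8%, 0.984 to 26), which were Socs2, an inhibitor of growth hormone signalling, over its start with 5.73 and Osmr, a cytokine receptor, at 16.2 kb with 3.89. Of the other 23 clock genes only Nfil3, a repressor of clock output, was named, with a promoter fold of 5.64 (4.35%, 0.11 to 21.9). Of the other 22 CCN, YAP and TAZ genes 6 were named (27.3%, 10.7 to 50.2), none at a promoter, and 3 at a q of 0.01 or less. Wwtr1, which encodes TAZ, had folds of 8.56 and 6.44 inside the gene, and its partner Tead1 had 6.05 and 5.74. Axl, a receptor kinase, had 4.92 and 5.13, Ankrd1, a YAP target in muscle, had 4.53, Ccn4, a secreted relative of Ccn2, had 4.04, and Lats2, a kinase that restrains YAP, had 3.76.

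**Figure D4:**
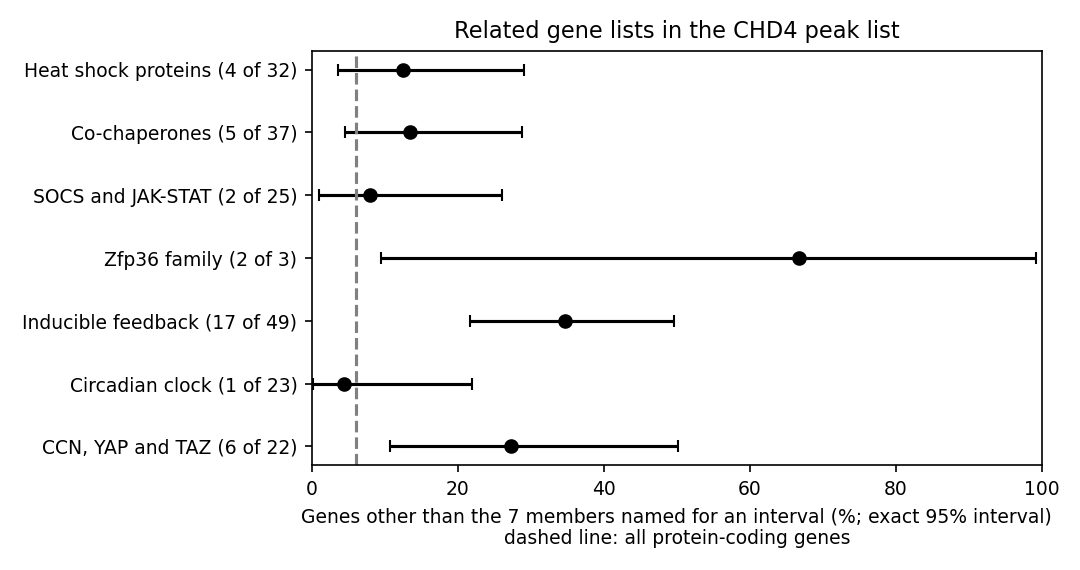
Share of the genes on each of 7 lists, other than the 7 genes the lists were built around, that were named for a CHD4 interval, in percent with exact 95% binomial bars and with counts beside the list names. The dashed line is the 6.1% of all protein-coding genes; inducible feedback genes stand at 34.7% and clock genes at 4.35%.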

How the data were processed

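CHD4 was profiled by CUT&Tag in 2 samples and IgG in 2, numbered 1 and 2 in each group, and the deposited data are 1 peak list for CHD4 against IgG. The tools named are MACS2 2.1.2, Bowtie2 2.2.5 and Trim Galore 0.5.0, with build mm10, per the submitters' processing notes. No source used here says how replicates were combined. Per the file headers the list holds the fold, a ratio of CHD4 to IgG, and its log2. The deposited −log10 p and −log10 q columns had lost their headers and were identified from the deposited score, which equals 10 times −log10 q without decimals. In 2 columns the header itself is a peak's value, so the first called peak is not analysed here.

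Members and lists were chosen with earlier results of these data known. Named were all 7 members and, from the lists, every gene with an interval. Promoter means within 1 kb of the authors' transcript start. Depth was recovered on the caller's Poisson model, scaling CHD4 by 0.429, which solved every one of 2066 summits in whole fragments (tolerance 0.0005 in −log10 p). A summit counted as solved where a single whole number of fragments matched. Of 40 sampled summits, no clearly different scale tried solved over 47.5% in this sense. A whole fraction of the true scale can match summits too, so the largest of the best scales was taken. The method was tested on simulated data. Peak coordinates are mm10, counted from 1, and gene positions and promoters are RefSeq's for GRCm38.p6, which has the same chromosomes. Every listed gene matched the RefSeq table. Python 3.11, pandas 2.3.3 and scipy 1.17.1 were used. Intervals cover counting error only, and duplicate fragments cannot be seen.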

Additional observations from a re-analysis of the deposited data

How the results depend on the processing

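The peak list has no value per sample, so leaving out a replicate could not be done. No paired analysis was possible because the list is 1 call over all samples. The 9 intervals became 6 at a q of 0.01 or less and 10 with every summit counted. Only 4 overlapped the RefSeq gene they were named for or lay within 1 kb of it. The 5 promoter intervals became 6 within 3 kb, 4 at a q of 0.01 or less, 4 by the RefSeq 5′ end (an alternative chosen after seeing the data) and 2 where the interval had to contain the start. The median fold of promoter minus distal intervals, −0.961, stayed negative in every alternative on the fold scale. It was −2.22 as a fragment ratio without the added 1, −2.06 at a q of 0.01 or less, −0.725 with promoters within 3 kb, −0.803 over summits, and between −1.88 and −0.883 with each gene left out in turn, with −1.88 without Ier3. The values −2.06 and −1.88 rest on few distal intervals, that of Ccn2 among them in each case. On the −log10 q scale the difference was 0.5, the other way round. By promoter intervals alone, list genes other than the 7 numbered 4 for inducible feedback, 1 each for the SOCS and JAK-STAT list and the Zfp36 family, and 0 for the CCN, YAP and TAZ list, which held 3 at a q of 0.01 or less. The other list counts stayed within 1.5 times. Depth limits the precision of each fold: the 2 intervals with fewer than 20 fragments were the distal interval of Ccn2 and the nearer of Ier3.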
